A study of Mus musculus with 8 samples.

Results

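The genes described here are 37 mouse genes of the p53 pathway and of apoptosis, chosen by name, as p53 and its regulators, p53 target genes, and the pro-death and anti-death genes of apoptosis. All 37 were among the 23234 gene names listed in each library, and 33 of them reached 1 FPKM (fragments per kilobase of transcript, scaled to the library's mapped fragments) in at least 2 of the 8 libraries and were tested. The study sequenced RNA from whole embryos whose mothers did or did not lack the DNA dioxygenase Tet3 in their oocytes. There were 4 groups of 2 libraries: Tet3-null blastocysts and wild-type blastocysts at 96 h, each library from a pool of 7 embryos, and Tet3-null and wild-type 2-cell embryos at 30 h, each from a pool of 10. Tet3-null embryos came from females with a floxed Tet3 allele, a null allele and Cre driven by the oocyte promoter Zp3, and wild-type embryos from females with floxed alleles on both chromosomes. Whether the wild-type females carried Cre, and the strain of the females, were not given in the sources used here. All females were superovulated, all eggs were fertilised in vitro with CAST/EiJ sperm, zygotes with a pair of pronuclei were kept, and embryos were cultured in KSOM medium. Tet3-null therefore names the oocyte: each embryo also received the Tet3 allele of the sperm. Nothing in the labels ties the 2 libraries of a group to different females, and the p-values therefore speak of the spread among these samples alone.

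p53, encoded by Trp53 in the mouse, is a transcription factor that is held low by the Mdm2 and Mdm4 proteins and, after DNA damage or other stress, switches on genes that stop the cell cycle, repair damage or kill the cell. Death through mitochondria is decided by the BCL2 family: BH3-only proteins sense stress, Bax and Bak1 open the outer mitochondrial membrane, and anti-death relatives such as Mcl1, Bcl2l1 and Bcl2 restrain both. Released cytochrome c then joins Apaf1 to activate Casp9 and the executioner caspases, while death receptors such as Fas activate Casp8 from the cell surface. In the mouse embryo the 2-cell stage carries much RNA stored by the oocyte and marks the main onset of embryonic transcription. The blastocyst has an outer trophectoderm and an inner cell mass, and some of its cells normally die by apoptosis.

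The libraries held between 10607 and 11660 genes at 1 FPKM or more, and their depth, judged from the smallest steps in the values, lay within 1.31 times of each other at either stage. Tet3-null 2-cell replicate 2 stood apart, with 7101 genes listed at 0 FPKM against 5370 to 6080 in the other 7 libraries, and with a Pearson correlation across genes of 0.943 with its own replicate. Tet3 itself had 3.28 and 4.41 FPKM in Tet3-null 2-cell embryos and 10.8 and 7.54 FPKM in wild-type 2-cell embryos (adjusted p = 0.0690). In blastocysts Tet3 had 0.519 and 0.412 FPKM in the Tet3-null libraries, against 0.957 and 0.459 FPKM in the wild type. The sum of 7 Y-linked genes was 102 and 94.5 FPKM in Tet3-null and 54.8 and 49.7 FPKM in wild-type blastocysts, and 31.7 and 0.166 FPKM in Tet3-null and 48.5 and 49.1 FPKM in wild-type 2-cell embryos, and their part in the results was not tested. Summed markers followed the labelled stages: the summed level of 11 oocyte genes was 3.77 to 6.19 FPKM in blastocysts and 1635 to 2547 FPKM in 2-cell embryos, with none of the 11 at 0 in every library. The summed level of 12 blastocyst genes, mostly Krt18, Krt8 and Id2, was 3297 to 5334 FPKM in blastocysts and 296 to 356 FPKM in 2-cell embryos. Of these 12, 7 were called higher in Tet3-null and 8 in wild-type blastocysts, and 2 were called lower in each genotype. Fgf4 had 2.09 to 4.11 FPKM in blastocysts against 15.1 to 58.9 FPKM in 2-cell embryos, and Gata4 had 1.68 to 4.23 FPKM against 4.54 to 16.4 FPKM. Because each library is a pool of whole embryos, fewer cells of a type and less RNA per cell cannot be told apart.

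The set spanned the whole range of expression. In 2-cell embryos Bcl2l10, an oocyte-rich relative of Bcl2, and Mdm4 were the highest of the 37, and in blastocysts Cycs, Trp53, Bad, Bax, Casp6 and Cdkn1a were the highest. At the low end, 4 genes never passed the 1 FPKM rule and were not tested. These were Bmf, a BH3-only gene that peaked at 0.417 FPKM, Bak1, whose highest level was 0.619 FPKM and which was listed at 0 in both wild-type 2-cell libraries, Casp8, which peaked at 0.773 FPKM, and Bcl2, which peaked at 0.230 FPKM. The initiator caspase of the receptor route, a pore-forming effector and the gene that names the family thus stayed below 1 FPKM in every library. A further 7 genes (Trp73, Zmat3, Phlda3, Perp, Bbc3, Fas and Casp9) reached 1 FPKM in fewer than 2 of the 2-cell libraries, and Bcl2l11 and Bcl2l10 in fewer than 2 of the blastocyst libraries. Apart from Trp73, these genes entered the test only through the stage where they are high, so their stage difference was in part fixed by the filter.

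**Figure D1:**
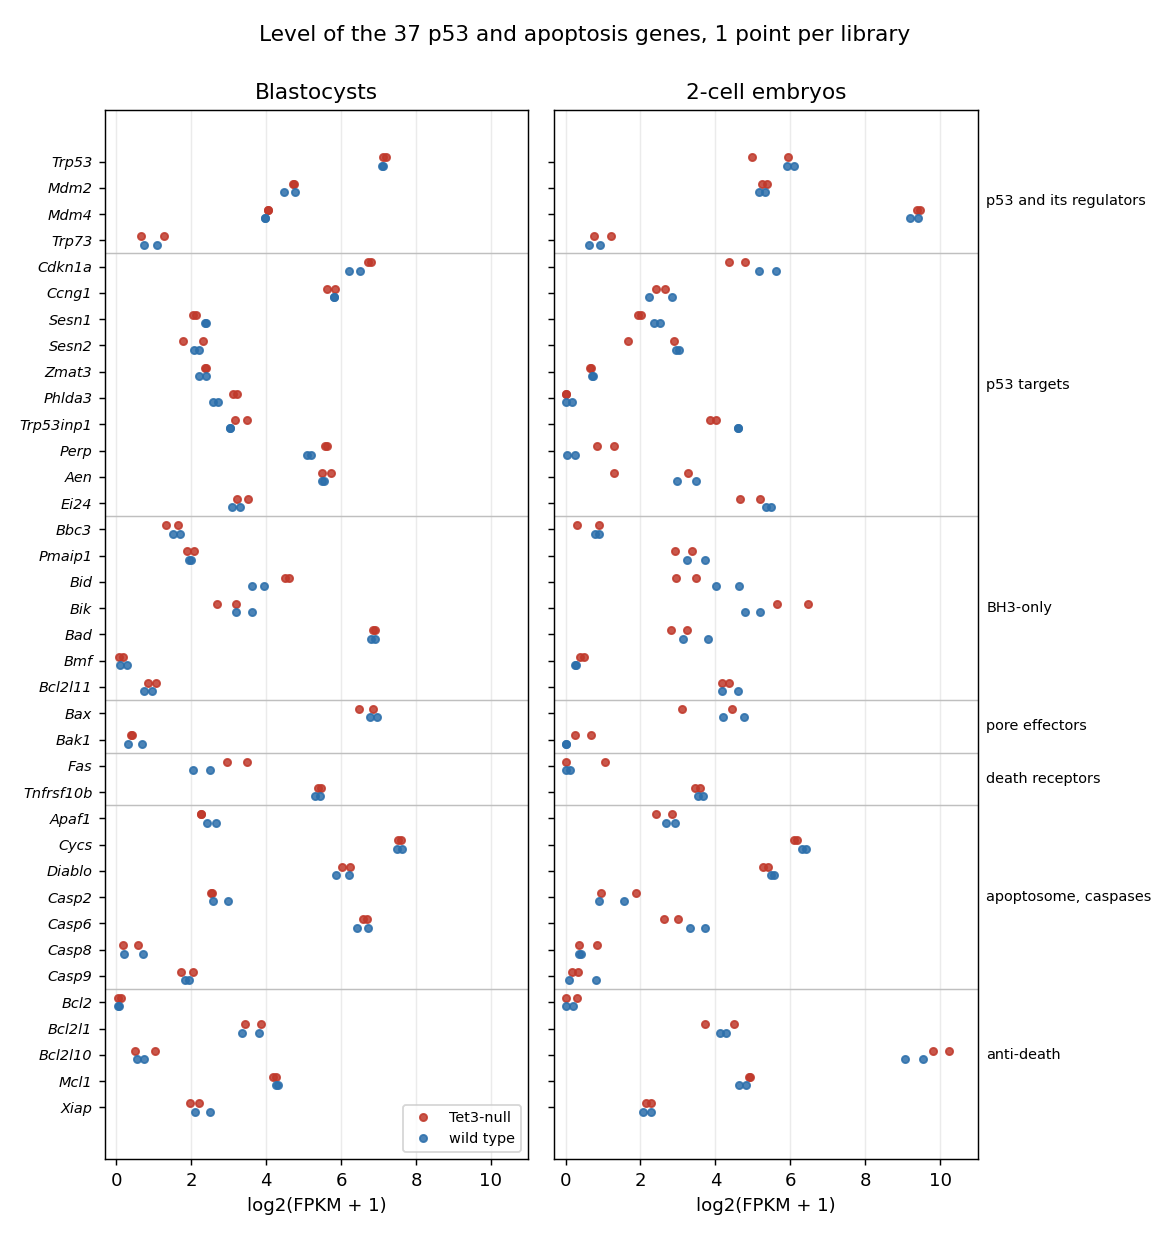
Level of each of the 37 genes in each library as log2(FPKM + 1), with blastocysts in the left panel and 2-cell embryos in the right panel, 1 point per library, Tet3-null in red and wild type in blue. Bcl2l10 and Mdm4 sit at the far right in 2-cell embryos, whereas in blastocysts Bcl2l10 lies near 0 and Cycs, Trp53, Bad and Bax lead.

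Between stages most of the genes changed, as did most genes in the embryo. The FPKM of all listed genes summed to 924556 to 956335 in blastocyst libraries and to 600495 to 634816 in 2-cell libraries. The stage differences and sums given here are not corrected for this. As shares of the library total, increases to the blastocyst would be smaller and decreases larger, so small increases in FPKM need not be increases in share. In Tet3-null embryos 18 of the 33 tested genes were called higher in blastocysts and 9 lower (limma, Benjamini-Hochberg adjusted p under 0.05), where 38.9% of all 13549 tested genes were called higher and 35.1% lower, 74.0% together. In wild-type embryos 17 were called higher and 9 lower, where 35.8% of all genes were higher and 38.4% lower, 74.3% together. The share of the set that was called was therefore near that of all genes. The same 17 genes were higher and the same 9 lower in both genotypes, and Bid was the additional gene in Tet3-null embryos. Apart by function, 11 of 15 tested pro-death genes were higher and 3 lower in Tet3-null embryos, and 10 were higher and 3 lower in the wild type, with median log2 differences of 1.34 and 1.20. Among the 4 tested anti-death genes none was higher and 2 were lower in both genotypes, with medians of -0.58 in Tet3-null and -0.53 in wild-type embryos. These counts and medians include genes that entered the test only through 1 stage, so their direction was in part fixed by the filter. They were Bbc3, Fas and Casp9 through blastocysts, and Bcl2l11 and Bcl2l10 through 2-cell embryos. Without them, the pro-death genes higher in both genotypes were Bad, Bax, Tnfrsf10b, Cycs, Diablo, Casp2 and Casp6. Pmaip1 and Bik were the lower pro-death genes, and Mcl1 the lower anti-death gene. Over all genes the median was 0.09 in Tet3-null and -0.08 in wild-type embryos. The group means of the 2 stage comparisons share no library, but their tests share 1 estimate of each gene's spread from all 8 libraries.

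**Figure D2:**
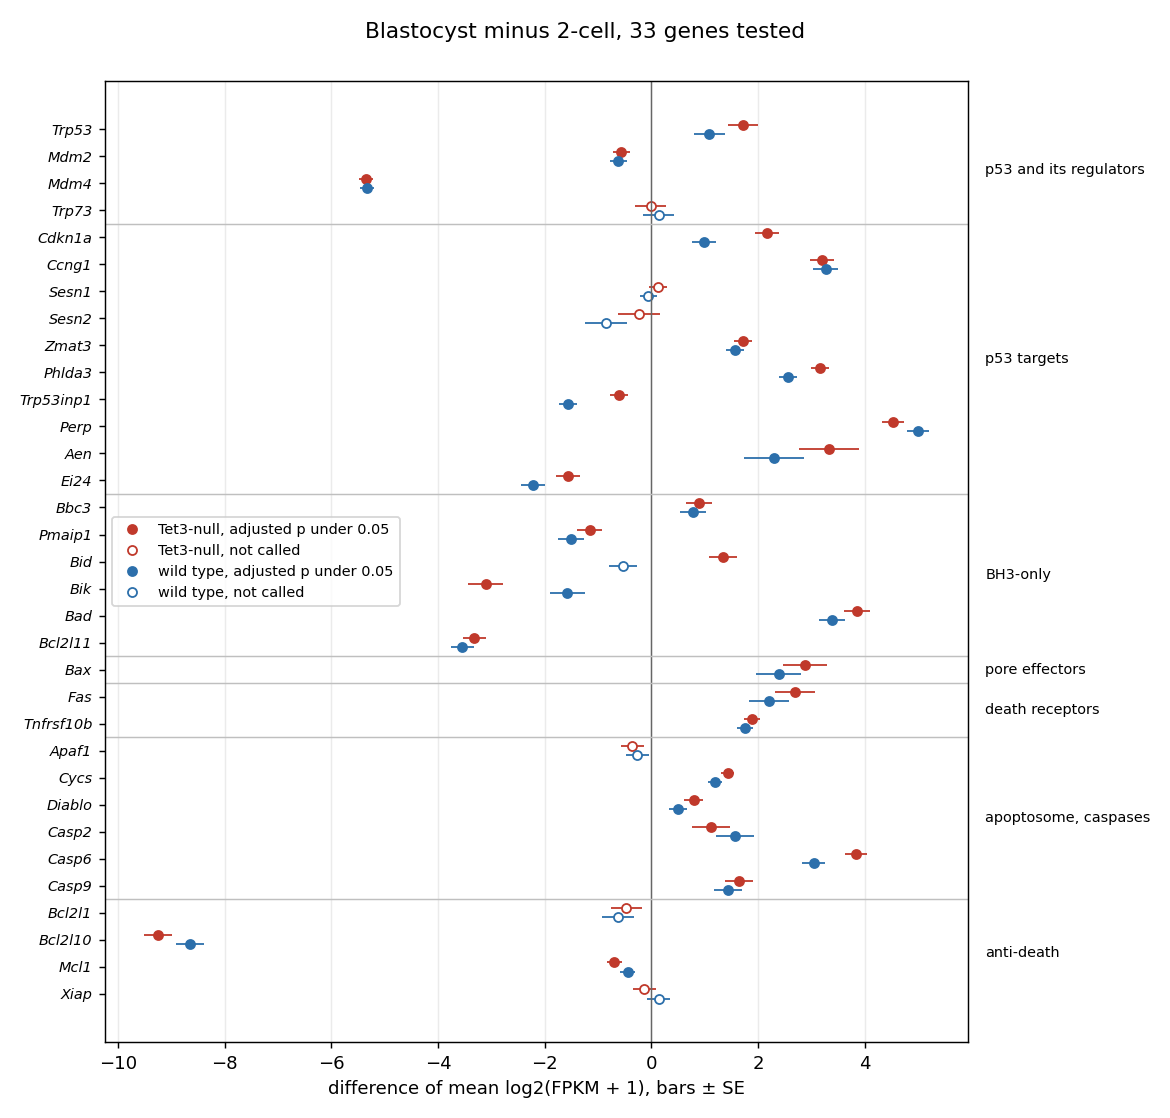
Difference of mean log2(FPKM + 1), blastocyst minus 2-cell, for the 33 tested genes, with bars of 1 SE, Tet3-null in red and wild type in blue, filled where the adjusted p was under 0.05. The pro-death genes lie mostly right of 0, Mdm4, Bcl2l11 and Bcl2l10 lie far to the left in both genotypes, and Bid lies right of 0 in Tet3-null and left of 0 in wild-type embryos.

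Among p53 and its regulators, the transcript of p53 was higher at the blastocyst stage and those of both of its inhibitors were lower. Trp53 had 147 and 138 FPKM in Tet3-null blastocysts against 59.9 and 30.2 FPKM in Tet3-null 2-cell embryos, and 137 and 135 FPKM in wild-type blastocysts against 67.5 and 59.4 FPKM in wild-type 2-cell embryos. The log2 difference was 1.72 (SE 0.29, adjusted p = 0.00116) in Tet3-null and 1.09 (SE 0.29, adjusted p = 0.0106) in wild-type embryos. Mdm4, which binds p53 and blocks its activation domain, had 15.6 and 15.7 FPKM in Tet3-null blastocysts against 661 and 702 FPKM in Tet3-null 2-cell embryos. In wild-type embryos Mdm4 had 14.8 and 14.7 FPKM in blastocysts against 681 and 585 FPKM in 2-cell embryos, 43.0-fold lower in blastocysts by the ratio of means (log2 difference -5.33, SE 0.13, adjusted p = 3.21e-07). Stages did not come near each other for this gene: it ranked 128 to 175 among all listed genes in 2-cell libraries and 3911 to 4215 in blastocyst libraries. The ratio of Trp53 to Mdm4 transcript was 8.80 to 9.41 in the 4 blastocyst libraries and 0.0431 to 0.102 in the 4 2-cell libraries. Mdm2, the ubiquitin ligase that targets p53 for degradation, fell less, to 25.6 ± 0.328 FPKM in Tet3-null blastocysts against 38.4 ± 2.48 FPKM in Tet3-null 2-cell embryos (SD, n = 2 each), and to 23.9 ± 3.68 FPKM in wild-type blastocysts against 37.04 ± 2.92 FPKM in wild-type 2-cell embryos. The p53 relative Trp73 stayed low, between 0.554 and 1.44 FPKM in all libraries, with overlapping stages.

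Of the 10 p53 target genes, 6 were higher at the blastocyst stage in both genotypes (Cdkn1a, Ccng1, Zmat3, Phlda3, Perp and Aen). In both, 2 were lower (Trp53inp1 and Ei24), and the stress-induced mTORC1 inhibitors Sesn1 and Sesn2 were not called. The calls over all tested genes were 38.9% up and 35.1% down for Tet3-null, and 35.8% up and 38.4% down for wild type. Of the 6, Zmat3, Phlda3 and Perp reached 1 FPKM in fewer than 2 of the 2-cell libraries. They entered the test only through blastocysts, so their direction was in part fixed by the filter. Without them, the higher targets were Cdkn1a, Ccng1 and Aen. Perp, a membrane protein of cell junctions that also acts in p53-dependent death, had 48.2 and 46.3 FPKM in Tet3-null blastocysts against 1.45 and 0.784 FPKM in Tet3-null 2-cell embryos. In the wild type Perp had 32.9 and 36.0 FPKM in blastocysts against 0.0279 and 0.201 FPKM in 2-cell embryos (log2 differences 4.53 in Tet3-null and 4.996 in wild type, SE 0.20 each, adjusted p = 2.34e-06 and 1.78e-06). Perp was thus near or below 1 FPKM in the 2-cell libraries, and so was Phlda3, a repressor of the survival kinase Akt. It had 8.33 and 7.60 FPKM in Tet3-null blastocysts and was listed at 0 in both Tet3-null 2-cell libraries, and it had 4.98 and 5.58 FPKM in wild-type blastocysts against 0.126 and 0 FPKM in wild-type 2-cell embryos. Ccng1, the cyclin G1 gene, had 56.4 and 48.4 FPKM in Tet3-null blastocysts against 5.28 and 4.36 FPKM in Tet3-null 2-cell embryos, and 55.4 and 55.1 FPKM in wild-type blastocysts against 6.23 and 3.71 FPKM in wild-type 2-cell embryos. Its log2 difference was 3.20 in Tet3-null and 3.27 in wild-type embryos (SE 0.23 each). Aen, an apoptosis-enhancing nuclease, had 52.6 and 43.8 FPKM in Tet3-null blastocysts against 8.56 and 1.46 FPKM in Tet3-null 2-cell embryos, and 44.3 and 45.4 FPKM in wild-type blastocysts against 10.2 and 6.81 FPKM in wild-type 2-cell embryos. Without wild-type 2-cell replicate 2 the wild-type difference of Aen missed the threshold (log2 2.04, adjusted p = 0.0517, where its adjusted p over 15 alternatives ran from 9.82e-05 to 0.0517).

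The remaining targets changed less. Cdkn1a, which encodes the cell-cycle inhibitor p21, had 107 ± 3.82 FPKM in Tet3-null blastocysts against 23.2 ± 4.90 FPKM in Tet3-null 2-cell embryos (SD, n = 2 each), a ratio of 4.61, and 82.0 ± 12.0 FPKM in wild-type blastocysts against 41.3 ± 9.62 FPKM in wild-type 2-cell embryos, a ratio of 1.98. Sesn1 lay between 2.84 and 4.73 FPKM and Sesn2 between 2.17 and 7.19 FPKM over all 8 libraries. Zmat3, an RNA-binding p53 target with 3.60 to 4.31 FPKM in blastocysts and 0.565 to 0.674 FPKM in 2-cell embryos, was higher by 1.72 in Tet3-null and 1.57 in wild-type blastocysts on the log2 scale. Trp53inp1, a stress-induced partner of p53, fell to 9.12 ± 1.53 FPKM in Tet3-null blastocysts against 14.3 ± 1.32 FPKM in 2-cell embryos, and to 7.27 ± 0.00395 FPKM in wild-type blastocysts against 23.3 ± 0.174 FPKM in 2-cell embryos. Ei24, a p53-induced protein of the endoplasmic reticulum, fell to 9.38 ± 1.42 FPKM in Tet3-null blastocysts against 30.0 ± 7.94 FPKM in 2-cell embryos, and to 8.16 ± 0.949 FPKM in wild-type blastocysts against 41.6 ± 2.80 FPKM in 2-cell embryos. Summed over the 10 targets, levels were 277 to 307 FPKM in Tet3-null and 238 to 260 FPKM in wild-type blastocysts, against 78.7 to 93.8 FPKM in Tet3-null and 126 to 138 FPKM in wild-type 2-cell embryos.

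Promoters were searched because p53 acts on its targets through a known 10-base element, which binds p53 best as a closely spaced pair. RefSeq windows (build GRCm38.p6) of 250 bases before to 50 after a gene's start were found for 30 of the 37 genes, 45 windows in all, and searched on both strands for the p53 consensus decamer, which reads the same on either strand. It was present in 10 of the 45 windows (22.2%), against 8.36% of all 32851 windows of that length, and a pair of decamers with a spacer of 0 to 13 bases was present in 1, that of Cdkn1a, against 24 of all windows (0.0731%). A gene can have more than 1 window, and Aen had the same 10 letters in 2 windows. The set includes genes chosen as p53 targets, so these shares are a description and not a test. The 9 genes with a decamer were Trp53, Mdm2, Cdkn1a, Ccng1, Sesn1, Aen, Ei24, Bmf and Bax. Of these, Trp53, Cdkn1a, Ccng1, Aen and Bax were higher at the blastocyst stage in both genotypes, Mdm2 and Ei24 were lower, Sesn1 was not called and Bmf was not tested, so a match did not go with a single direction. Of the 5 promoters shown, 3 belong to genes that were higher (Cdkn1a, Ccng1 and Bax) and 2 to genes that were lower (Mdm2 and Ei24), each given 5′ to 3′ on the gene's strand as the 250 bases before the start, with decamers in capitals and no decamer overlapping another. Cdkn1a lies at chr17:29090729-29090978 on the plus strand, and the others lie on the minus strand, Ccng1 at chr11:40755287-40755536, Bax at chr7:45466899-45467148, Mdm2 at chr10:117710759-117711008 and Ei24 at chr9:36797335-36797584.
Cdkn1a: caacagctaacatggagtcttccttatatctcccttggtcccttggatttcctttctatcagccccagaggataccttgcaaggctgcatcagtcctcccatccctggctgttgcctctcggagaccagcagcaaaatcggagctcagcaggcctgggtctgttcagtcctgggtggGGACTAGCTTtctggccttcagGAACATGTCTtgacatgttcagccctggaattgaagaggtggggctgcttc
Ccng1: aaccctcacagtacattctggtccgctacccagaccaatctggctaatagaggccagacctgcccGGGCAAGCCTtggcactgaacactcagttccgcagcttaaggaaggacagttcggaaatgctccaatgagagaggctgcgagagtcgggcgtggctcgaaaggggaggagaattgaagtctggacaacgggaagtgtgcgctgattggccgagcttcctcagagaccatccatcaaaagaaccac
Bax: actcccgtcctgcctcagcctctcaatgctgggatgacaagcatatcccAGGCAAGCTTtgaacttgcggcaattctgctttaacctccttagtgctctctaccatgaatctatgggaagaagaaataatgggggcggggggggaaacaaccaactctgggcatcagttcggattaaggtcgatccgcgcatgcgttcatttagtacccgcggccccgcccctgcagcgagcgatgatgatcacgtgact
Mdm2: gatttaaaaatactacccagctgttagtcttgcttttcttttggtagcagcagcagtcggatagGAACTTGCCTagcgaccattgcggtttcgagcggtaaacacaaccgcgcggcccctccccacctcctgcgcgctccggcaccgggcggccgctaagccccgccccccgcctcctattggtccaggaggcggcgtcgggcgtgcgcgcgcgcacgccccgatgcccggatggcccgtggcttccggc
Ei24: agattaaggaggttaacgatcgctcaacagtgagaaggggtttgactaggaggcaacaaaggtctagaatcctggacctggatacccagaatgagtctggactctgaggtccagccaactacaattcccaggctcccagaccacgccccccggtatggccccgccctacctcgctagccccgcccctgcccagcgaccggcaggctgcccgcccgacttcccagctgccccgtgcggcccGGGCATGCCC
In Cdkn1a the decamers start 73 and 51 bases before the start, in Ccng1 185, in Bax 201, in Mdm2 186 and in Ei24 10. Each position counts from the start that the printed window belongs to, which need not be the gene's most used start. A match is a description of these letters and not a measured binding site.

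The BCL2 family changed its make-up between the stages. Bcl2l10, for which both protective and death-promoting activity has been described in the mouse and which is counted here with the anti-death genes, had 1.04 and 0.423 FPKM in Tet3-null blastocysts against 899 and 1201 FPKM in Tet3-null 2-cell embryos. In the wild type it had 0.473 and 0.688 FPKM in blastocysts against 745 and 537 FPKM in 2-cell embryos (log2 difference -9.25 in Tet3-null and -8.65 in wild type, SE 0.26 each, adjusted p = 4.02e-07 and 6.24e-07). It supplied 92.1% to 96.0% of the summed FPKM of the 4 anti-death BCL2 relatives in 2-cell libraries, against 1.49% to 3.29% in blastocyst libraries. Oocyte markers moved in the same direction: 10 of 11 were called lower in blastocysts in both genotypes, and their part in the change of Bcl2l10 was not tested. The other anti-death genes had smaller stage differences than Bcl2l10. Mcl1, a short-lived anti-death protein, was called lower in both genotypes, by 0.69 in Tet3-null and by 0.44 in wild-type blastocysts on the log2 scale. Bcl2l1, which encodes BCL-XL, had 11.6 ± 2.58 and 11.2 ± 2.59 FPKM in Tet3-null and wild-type blastocysts. It had 16.9 ± 6.51 and 17.5 ± 1.53 FPKM in Tet3-null and wild-type 2-cell embryos. Bcl2l1 was not called, though its wild-type libraries did not overlap between stages (log2 difference -0.62). As shares of the library total these decreases would be larger. The caspase inhibitor Xiap lay between 2.88 and 4.71 FPKM in all libraries.

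The pro-death members of the family moved in both directions. Bad, a BH3-only sensor of growth factor signals, had 119 and 114 FPKM in Tet3-null blastocysts against 6.04 and 8.38 FPKM in Tet3-null 2-cell embryos, and 110 and 119 FPKM in wild-type blastocysts against 7.71 and 12.9 FPKM in wild-type 2-cell embryos. The pore-forming effector Bax had 115 and 87.6 FPKM in Tet3-null blastocysts against 20.7 and 7.67 FPKM in Tet3-null 2-cell embryos, and 124 and 108 FPKM in wild-type blastocysts against 25.9 and 17.5 FPKM in wild-type 2-cell embryos. Both were higher at the blastocyst stage in both genotypes, with no overlap (Bad log2 3.86 in Tet3-null and 3.39 in wild type, SE 0.25 each, and Bax log2 2.88 in Tet3-null and 2.39 in wild type, SE 0.42 each). The BH3-only gene Bcl2l11, which encodes BIM, went the other way, with 1.07 and 0.805 FPKM in Tet3-null blastocysts against 19.6 and 17.0 FPKM in Tet3-null 2-cell embryos, and 0.926 and 0.681 FPKM in wild-type blastocysts against 17.2 and 23.2 FPKM in wild-type 2-cell embryos. Bik, a BH3-only protein of the endoplasmic reticulum, fell to 8.24 and 5.48 FPKM in Tet3-null blastocysts against 49.3 and 87.6 FPKM in Tet3-null 2-cell embryos, and to 11.4 and 8.15 FPKM in wild-type blastocysts against 35.2 and 26.8 FPKM in wild-type 2-cell embryos. Its log2 difference was -3.11 in Tet3-null and -1.57 in wild-type embryos (SE 0.33 each). The p53-induced BH3-only genes split: Bbc3, which encodes PUMA, rose to 1.83 ± 0.471 FPKM in Tet3-null and 2.05 ± 0.254 FPKM in wild-type blastocysts, against 0.538 ± 0.429 and 0.780 ± 0.0979 FPKM in Tet3-null and wild-type 2-cell embryos. Pmaip1, which encodes NOXA, fell to 3.25 and 2.74 FPKM in Tet3-null and 2.82 and 2.99 FPKM in wild-type blastocysts, against 9.42 and 6.60 FPKM in Tet3-null and 8.38 and 12.1 FPKM in wild-type 2-cell embryos.

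Summed over the 9 pro-death members of the family (BH3-only genes, Bax and Bak1), the level was 272 and 234 FPKM in Tet3-null and 265 and 254 FPKM in wild-type blastocysts, against 113 and 138 FPKM in Tet3-null and 119 and 109 FPKM in wild-type 2-cell embryos. The 4 anti-death relatives summed to 31.7 and 28.3 FPKM in Tet3-null and 31.6 and 29.0 FPKM in wild-type blastocysts, against 940 and 1251 FPKM in Tet3-null and 786 and 583 FPKM in wild-type 2-cell embryos. The ratio of the pro-death to the anti-death sum was 8.27 to 8.74 in blastocysts and 0.111 to 0.186 in 2-cell embryos. With Bcl2l10 left out of the anti-death sum, the ratio was 8.40 to 8.96 in blastocysts and 2.36 to 2.96 in 2-cell embryos. These are ratios of summed transcript levels and not of proteins.

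**Figure D3:**
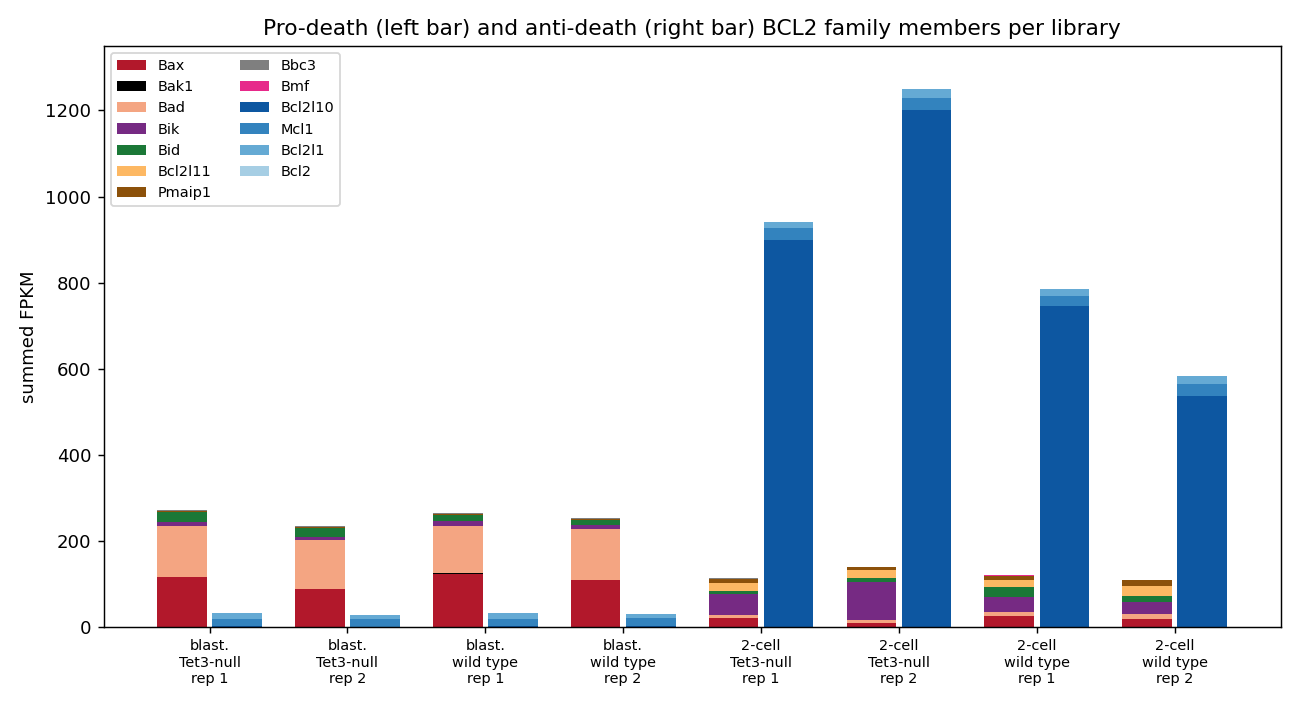
Summed FPKM of the 9 pro-death (left bar) and 4 anti-death (right bar) BCL2 family genes in each library, coloured by gene, blastocysts left and 2-cell embryos right. Bcl2l10 makes up nearly all of the anti-death bar in 2-cell embryos (92.1% to 96.0%) and little of it in blastocysts, where Bad and Bax fill most of the pro-death bar.

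Death receptors and most of the execution genes were higher at the blastocyst stage. Tnfrsf10b, the mouse TRAIL receptor, had 42.0 ± 2.16 FPKM in Tet3-null and 40.1 ± 2.66 FPKM in wild-type blastocysts, against 10.6 ± 0.738 and 11.2 ± 0.870 FPKM in Tet3-null and wild-type 2-cell embryos (SD, n = 2 each). Fas was listed at 3.16 to 10.2 FPKM in blastocysts and at 0 to 1.07 FPKM in 2-cell embryos, higher in both genotypes (log2 2.70 in Tet3-null and 2.21 in wild type, SE 0.37 each). Casp6, an executioner caspase, had 95.4 and 103 FPKM in Tet3-null blastocysts against 6.99 and 5.17 FPKM in Tet3-null 2-cell embryos, and 84.4 and 104 FPKM in wild-type blastocysts against 12.2 and 9.07 FPKM in wild-type 2-cell embryos. Its log2 difference, 3.84 in Tet3-null and 3.04 in wild-type embryos (SE 0.21 each), stood beside those of the initiator caspases Casp9 (1.65 in Tet3-null, 1.45 in wild type) and Casp2 (1.13 in Tet3-null, 1.57 in wild type). Cycs, the cytochrome c gene, reached 188 ± 8.74 FPKM in Tet3-null and 188 ± 10.9 FPKM in wild-type blastocysts, against 69.3 ± 2.26 and 81.4 ± 4.55 FPKM in Tet3-null and wild-type 2-cell embryos. Cycs has many processed pseudogenes whose reads could be shared, so its level is uncertain. Diablo, the antagonist of Xiap that mitochondria release, was higher by 0.79 in Tet3-null and by 0.51 in wild-type blastocysts on the log2 scale. This is a small increase in FPKM and need not be an increase in share of the library total. Apaf1, the scaffold that activates Casp9, was not called, with 3.79 and 3.83 FPKM in Tet3-null blastocysts against 6.17 and 4.29 FPKM in Tet3-null 2-cell embryos, and 5.28 and 4.37 FPKM in wild-type blastocysts against 6.62 and 5.38 FPKM in wild-type 2-cell embryos. The libraries were not strand-specific, and Zmat3, Bad, Bcl2l11, Bak1, Apaf1, Diablo, Casp9 and Bcl2l1 overlap another listed gene, so their reads cannot be fully told apart from that neighbour's.

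In 2-cell embryos no gene of the set was called between the genotypes, and the genes of the set were apart in the 2 genotypes about as often as all genes. By limma, 0 of 33 were called at an adjusted p under 0.05, where 2.72% of all tested genes were called. At an unadjusted p under 0.05 there were 3 higher (Perp, Bik and Bcl2l10) and 5 lower (Bid, Trp53inp1, Cdkn1a, Casp6 and Sesn1), where 23.7% of all genes passed, so the count is near the background. Libraries of the 2 genotypes did not overlap for 14 of the 33, 4 higher and 10 lower, against 47.5% of all genes, 12.6% higher and 34.9% lower. The 10 lower were the p53 targets Cdkn1a, Sesn1, Sesn2, Zmat3, Trp53inp1 and Ei24, with Bid, Cycs, Diablo and Casp6, and the 4 higher were Perp, Bik, Bcl2l10 and Mcl1. The median log2 difference was -0.18 for the set and -0.17 for all genes. It was -0.20 for the 15 pro-death genes, -0.47 for the 10 p53 targets and 0.11 for the 4 anti-death genes. The libraries' scaling sets these signs in part: with median-of-ratios scaling the median of all genes was 0.02, that of pro-death genes 0.05 and that of anti-death genes 0.35.

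Perp had 1.45 and 0.784 FPKM in Tet3-null 2-cell embryos, against 0.0279 and 0.201 FPKM in the wild type (log2 difference 0.91, SE 0.20, adjusted p = 0.0637). Both Tet3-null libraries lay above both wild-type libraries, at levels near 1 FPKM or below. Cdkn1a had 19.7 and 26.7 FPKM in Tet3-null embryos against 34.5 and 48.1 FPKM in the wild type (log2 difference -0.80, SE 0.22, adjusted p = 0.0945). Trp53inp1 had 13.4 and 15.2 FPKM in Tet3-null embryos against 23.4 and 23.2 FPKM in the wild type (log2 difference -0.67, SE 0.17, adjusted p = 0.0789). For both genes the Tet3-null libraries were the lower pair. Sesn1 had 2.84 and 3.03 FPKM in Tet3-null embryos against 4.73 and 4.14 FPKM in the wild type, and Ei24 had 35.6 and 24.4 FPKM in Tet3-null embryos against 39.6 and 43.5 FPKM in the wild type (adjusted p = 0.1498 and 0.237). Trp53 itself had 59.9 and 30.2 FPKM in Tet3-null embryos against 67.5 and 59.4 FPKM in the wild type, where Tet3-null replicate 1 lay between the wild-type libraries (log2 difference -0.56, SE 0.29, adjusted p = 0.283).

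Among the death genes, Bid and Bik had a log2 difference of 1 or more and no overlap of their libraries, as did 5.99% of all genes. Bid, the BH3-only protein that links caspase-8 to mitochondria, had 6.72 and 10.1 FPKM in Tet3-null 2-cell embryos against 23.6 and 15.2 FPKM in the wild type (log2 difference -1.11, SE 0.27, adjusted p = 0.0735). Bik had 49.3 and 87.6 FPKM in Tet3-null embryos against 35.2 and 26.8 FPKM in the wild type (log2 difference 1.07, SE 0.33, adjusted p = 0.116). So these 2 BH3-only genes lay on opposite sides, and the other 4 tested ones (Bbc3, Pmaip1, Bad and Bcl2l11) had overlapping libraries. Casp6 had 6.99 and 5.17 FPKM in Tet3-null embryos against 12.2 and 9.07 FPKM in the wild type (log2 difference -0.72, SE 0.21, adjusted p = 0.109). Bcl2l10 had 899 and 1201 FPKM in Tet3-null embryos against 745 and 537 FPKM in the wild type, 1.64 times higher by the ratio of means (log2 difference 0.71, SE 0.26, adjusted p = 0.156). Beside it, the 11 oocyte markers summed to 1892 and 2547 FPKM in Tet3-null and 1866 and 1635 FPKM in wild-type embryos, and 9 markers of 2-cell transcription to 1556 and 2195 FPKM in Tet3-null and 1466 and 1165 FPKM in wild-type embryos. Their part in the levels of Bcl2l10 and Bik was not tested. Of other cell types, 6 blood markers summed to 9.24 and 29.7 FPKM in Tet3-null and 35.1 and 32.7 FPKM in wild-type 2-cell embryos, mostly Cd52, with Hbb-b1 and Ptprc at 0 in all 4 libraries. The 9 cumulus and granulosa markers summed to 15.2 and 25.0 FPKM in Tet3-null and 31.2 and 20.3 FPKM in wild-type 2-cell embryos, with Inha and Amh at 0 in all 4 libraries.

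The 2-cell result rests on which Tet3-null library is used. Without Tet3-null replicate 1, so that replicate 2 alone stands for its group and is assumed to vary like the others, 8 genes were called, 2 higher (Perp and Bik) and 6 lower (Trp53, Sesn2, Aen, Ei24, Bax and Casp6), and 25.5% of all genes were called. Without Tet3-null replicate 2, 1 gene of the set and 2.32% of all genes were called, the gene being Perp (log2 difference 1.14, adjusted p = 0.0420), where the adjusted p of Perp over 15 alternatives ran from 0.0377 to 0.376. For Trp53, Bax and Aen the 2 Tet3-null libraries stood far apart: Aen had 8.56 FPKM in replicate 1 and 1.46 FPKM in replicate 2. An exact permutation test on 2 against 2 libraries cannot reach 0.05.

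**Figure D4:**
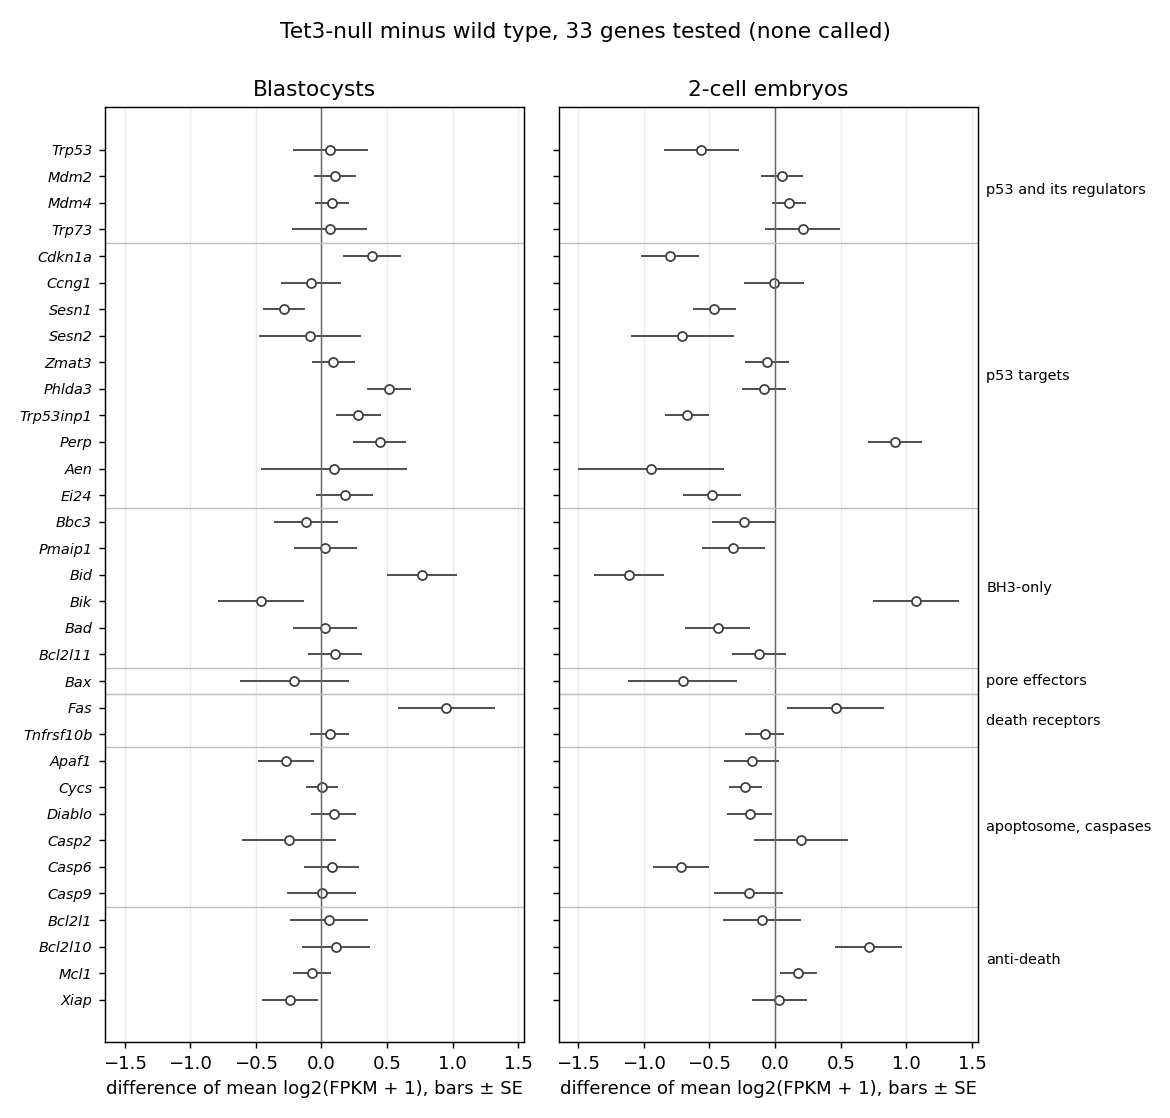
Difference of mean log2(FPKM + 1), Tet3-null minus wild type, for the 33 tested genes, with bars of 1 SE, blastocysts in the left panel and 2-cell embryos in the right panel. All points are open because none had an adjusted p under 0.05, and Bid, Cdkn1a and Trp53inp1 lie right of 0 in blastocysts and left of 0 in 2-cell embryos.

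In blastocysts the libraries of the 2 genotypes overlapped for most genes of the set, as they did for most of all genes. None of 33 was called, 0 by limma, where 0.0664% of all genes were called. At an unadjusted p under 0.05 there were 3 higher (Phlda3, Bid and Fas) and 0 lower, where 5.46% of all genes passed. Libraries did not overlap for 12 of the 33, 8 higher and 4 lower, against 44.2% of all genes, 19.0% higher and 25.3% lower. The 8 higher were Trp53, Mdm4, Cdkn1a, Phlda3, Trp53inp1, Perp, Bid and Fas, and the 4 lower were Sesn1, Apaf1, Casp2 and Mcl1. The median log2 difference was 0.06 for the set, 0.14 for p53 targets, 0.03 for pro-death genes, -0.01 for anti-death genes and -0.02 for all genes.

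Phlda3 had 8.33 and 7.60 FPKM in Tet3-null blastocysts against 4.98 and 5.58 FPKM in the wild type (log2 difference 0.51, SE 0.17, adjusted p = 0.785). Bid had 23.3 and 21.6 FPKM in Tet3-null blastocysts against 14.3 and 11.4 FPKM in the wild type (log2 difference 0.77, SE 0.27, adjusted p = 0.849). Fas, the receptor of Fas ligand and a p53 target, had 10.2 and 6.79 FPKM in Tet3-null blastocysts against 4.62 and 3.16 FPKM in the wild type (log2 difference 0.95, SE 0.37, adjusted p = 0.881). For each of the 3 genes both Tet3-null libraries lay above both wild-type libraries. Perp (48.2 and 46.3 FPKM in Tet3-null, 32.9 and 36.0 FPKM in wild type), Cdkn1a (110 and 104 FPKM in Tet3-null, 73.5 and 90.5 FPKM in wild type) and Trp53inp1 (10.2 and 8.03 FPKM in Tet3-null, 7.27 and 7.28 FPKM in wild type) were ordered the same way, with adjusted p of 0.977 or above. Sesn1 was ordered the opposite way, with 3.40 and 3.17 FPKM in Tet3-null and 4.24 and 4.19 FPKM in wild-type blastocysts, as was Apaf1, with 3.79 and 3.83 FPKM in Tet3-null and 5.28 and 4.37 FPKM in wild-type blastocysts. Bik and Xiap overlapped, Bik with 8.24 and 5.48 FPKM in Tet3-null and 11.4 and 8.15 FPKM in wild-type blastocysts, and Xiap with 2.88 and 3.59 FPKM in Tet3-null and 4.71 and 3.33 FPKM in wild-type blastocysts. Trp53, at 142 ± 5.85 FPKM in Tet3-null and 136 ± 1.62 FPKM in wild-type blastocysts, and Cycs, at 188 FPKM in both, had log2 differences of 0.07 and 0.01. The 12 blastocyst markers summed to 3551 and 3297 FPKM in Tet3-null and 5334 and 4967 FPKM in wild-type blastocysts, and Krt18, Krt8 and Id2 made up most of these sums. Of the 12, 9 were lower and 3 higher in Tet3-null blastocysts by log2 difference, and 0 were called. Libraries did not overlap for 5 lower genes and for 2 higher ones, Gata6 and Nanog. The part of these markers in the differences of Perp, Phlda3, Bid and Fas was not tested.

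The difference between the genotype effects, blastocyst minus 2-cell, was tested as an interaction in the same model. None of the 33 was called, 0 by limma, where 0.140% of all genes were called, and at an unadjusted p under 0.05 there were 5 higher and 1 lower, where 14.4% of all genes passed. Bid differed most: its genotype effect was -1.11 in 2-cell embryos and 0.77 in blastocysts, a difference of 1.88 (SE 0.38, adjusted p = 0.133). Put as a stage change, Bid rose to 22.5 ± 1.20 FPKM in Tet3-null blastocysts against 8.41 ± 2.40 FPKM in Tet3-null 2-cell embryos (log2 1.34, adjusted p = 0.00278), and had 12.9 ± 2.04 FPKM in wild-type blastocysts against 19.4 ± 5.93 FPKM in wild-type 2-cell embryos (log2 -0.54, adjusted p = 0.105). Cdkn1a had an interaction of 1.19 (SE 0.31, adjusted p = 0.198) and Trp53inp1 of 0.95 (SE 0.24, adjusted p = 0.188). Bik had -1.53 (SE 0.46, adjusted p = 0.234), Casp6 0.79 (SE 0.30, adjusted p = 0.305) and Phlda3 0.60 (SE 0.24, adjusted p = 0.330). Tet3-null libraries lay below the wild type at the 2-cell stage and above it at the blastocyst stage, without overlap at either, for 3 of 33 genes (Bid, Cdkn1a and Trp53inp1, 9.09%), against 6.69% of all genes. The opposite order held for Mcl1 alone, against 2.56% of all genes. The Tet3-null libraries of Perp lay above the wild type at both stages without overlap, as did 2.75% of all genes, and those of Sesn1 lay below it, as did 9.18% of all genes, and neither gene was called at either stage. Without Tet3-null 2-cell replicate 1, 4 of 33 interactions were called, near the 12.6% called over all genes in the same fit: Trp53 (1.11), Aen (2.02), Bid (1.62, adjusted p = 0.0402) and Bik (-1.94, adjusted p = 0.0334). Over 14 alternatives the adjusted p of Bid ran from 0.0402 to 0.494.

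**Figure D5:**
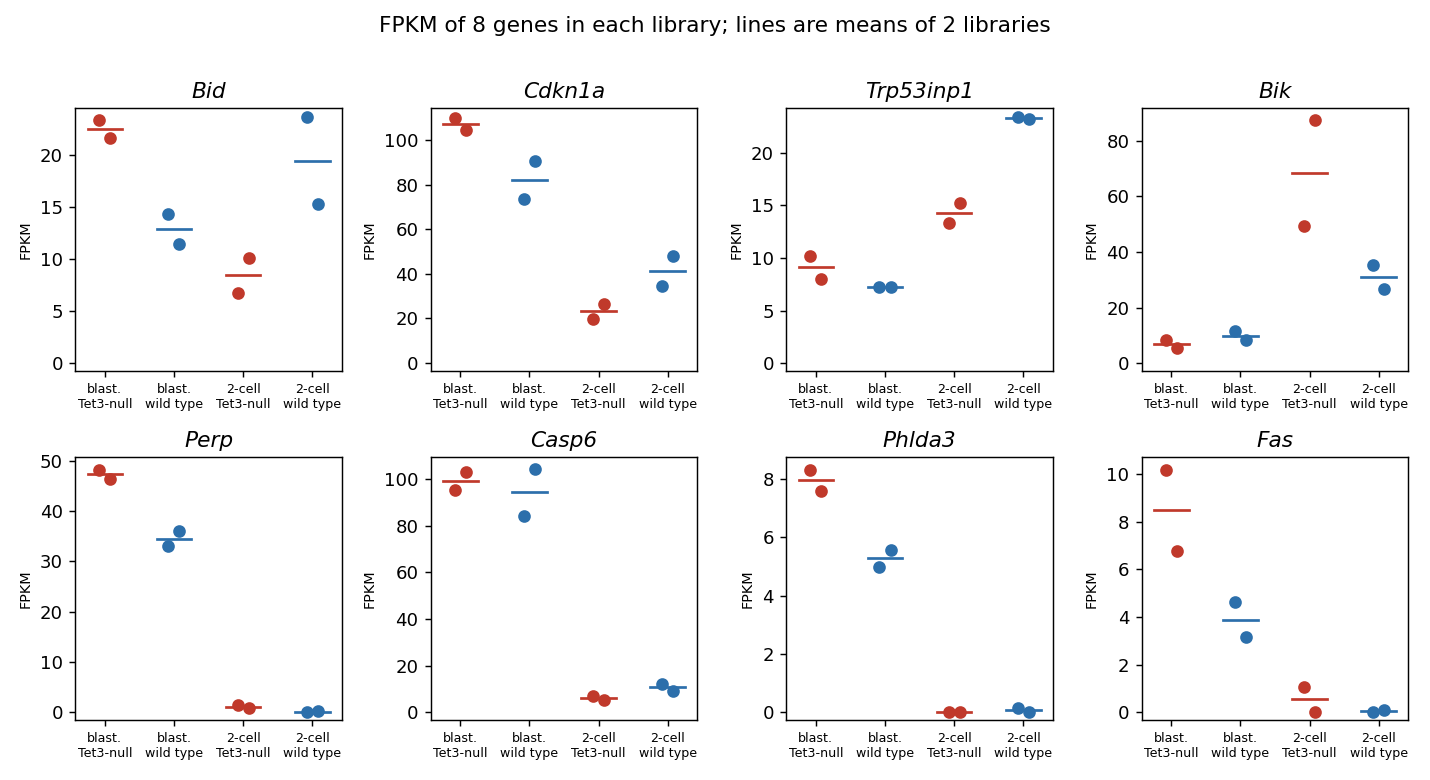
FPKM of Bid, Cdkn1a, Trp53inp1, Bik, Perp, Casp6, Phlda3 and Fas in each library on linear axes, 1 point per library with a line at the mean of 2, groups ordered as Tet3-null and wild-type blastocysts and then Tet3-null and wild-type 2-cell embryos, Tet3-null in red and wild type in blue. The order of the genotypes is opposite at the 2 stages for Bid, Cdkn1a and Trp53inp1, and Perp, Phlda3 and Fas are near 0 in 2-cell embryos.

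Other genes of these pathways, from lists that leave the 37 out, were called between stages, and none was called between genotypes. Of 34 tested p53 pathway genes, 14 were higher and 15 lower in Tet3-null blastocysts, and 12 were higher and 18 lower in wild-type blastocysts, where 74.0% of all genes were called in Tet3-null and 74.3% in wild-type embryos. The largest increases in the wild type were in Steap3, an iron reductase and p53 target (9.19 FPKM in blastocysts, 0.0895 in 2-cell embryos), Eda2r, a receptor for ectodysplasin (9.98 FPKM in blastocysts, 1.56 in 2-cell embryos), and Pml, the nuclear body protein (5.82 FPKM in blastocysts, 0.588 in 2-cell embryos). The largest decreases were in Gadd45a, a damage-response gene (1.72 FPKM in blastocysts, 60.6 in 2-cell embryos), Rrm2b, the p53-induced ribonucleotide reductase subunit (0.932 FPKM in blastocysts, 29.0 in 2-cell embryos), and Rfwd2, a ubiquitin ligase for p53 (7.42 FPKM in blastocysts, 53.3 in 2-cell embryos). Of 29 tested apoptosis genes, 15 were higher and 5 lower in Tet3-null blastocysts, and 14 were higher and 6 lower in wild-type blastocysts. Pdcd6, Dffb, the nuclease that cuts DNA in dying cells, and Bok, a relative of Bax, led the increases, with 146, 15.2 and 27.0 FPKM in wild-type blastocysts against 7.23, 0.0450 and 1.51 FPKM in 2-cell embryos. Of the genes named here as increased, Steap3, Eda2r, Pml and Dffb reached 1 FPKM in fewer than 2 of the 2-cell libraries. These entered the test only through blastocysts, so their direction was in part fixed by the filter. Birc3, an inhibitor of apoptosis, Tnfsf10, which encodes the ligand TRAIL, and Cflar, an inhibitor of caspase-8, led the decreases, with 3.77, 9.88 and 3.95 FPKM in wild-type blastocysts against 31.7, 42.8 and 16.8 FPKM in 2-cell embryos. TRAIL and its receptor Tnfrsf10b thus moved in opposite directions. None of the 34 or the 29 was called between genotypes, where 2.72% of all genes were called in 2-cell embryos and 0.0664% in blastocysts. At an unadjusted p under 0.05 in 2-cell embryos 4 of the 34 and 4 of the 29 passed, where 23.7% of all genes did.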

How the data were processed

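RNA-seq of pooled whole embryos (SMARTer cDNA, unstranded libraries) was used. Per the submitters' processing notes, the tools were Cufflinks 2.2.0, Bowtie2 2.1.0 and TopHat2 2.0.10, and the build was mm9; the annotation and settings were not given in the sources used here. The authors deposited 1 FPKM value per gene symbol and library, without counts, so absolute depth is unknown. Values were compared as log2(FPKM + 1), which understates changes of low genes. Genes with at least 1 FPKM in 2 of the 8 libraries (13549 of 23234) were fitted with limma 3.58.1 in R 4.3.3, with an intensity trend, 4 group means, 4 residual degrees of freedom and a Benjamini-Hochberg adjusted p threshold of 0.05 over all tested genes. The fit was tested on simulated data.

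The 37 genes, the gene lists and the tests were chosen with earlier results of these data known. Per-library values are given for genes whose libraries did not overlap at a log2 difference of 1 or more, for the 10 with the largest test statistic in each genotype comparison and the 10 called with the largest change in each stage comparison. Of the other pathway genes, the 3 called with the largest change in each direction in the wild-type stage comparison are named. Alternatives were another pseudocount (0.1), no filter, other scalings, a replicate block and leaving out each library. Promoters came from RefSeq (GRCm38.p6), and no coordinates of the files' build were used. Whether same-numbered libraries are pairs across groups was not given in the sources used here. Their deviations from group means had correlations of -0.0756 to 0.0184, which cannot settle it with 2 libraries per group.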

Additional observations from a re-analysis of the deposited data

How the results depend on the processing

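In the genotype comparison of 2-cell embryos, 0 of the 33 genes were called, and 1 (Perp, log2 difference 2.58, adjusted p = 0.0497) with a pseudocount of 0.1. Leaving out each library in turn gave 0 to 8 calls there, 0 to 4 for the difference between the stages and 0 in blastocysts. The stage comparisons gave 24 to 28 calls in Tet3-null and 21 to 28 in wild-type embryos when each library was left out. The 2-cell median log2 difference of the pro-death genes was 0.0498 with median-of-ratios scaling and -0.0212 with quantile normalization, and that of the anti-death genes 0.35 and 0.32. Without each library the pro-death median ran from -0.26 to -0.0393. Without a filter the stage median of the pro-death genes was 1.01 in Tet3-null and 0.64 in wild-type embryos, where the added genes are low. For the other moves the cause was not tested. No named gene that was called changed sign. With the replicate block, the calls were 0 in both genotype comparisons and for their difference, 27 in the Tet3-null and 25 in the wild-type stage comparison. As background to the stage counts, 74.0% of all genes in Tet3-null and 74.3% in wild-type embryos were called in the main fit. The genotype comparisons had 0 calls without the block too, so this cannot show whether same-numbered libraries are pairs. With FPKM and no counts, no counting interval could be given, and 2 libraries per group limit every test.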

Other observations

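Among the p53 pathway genes outside the 37, the p53 relative Trp63 is given here, picked after its values were seen. It entered the test only through 2-cell embryos, so the direction of its stage difference was in part fixed by the filter. Trp63, which guards oocytes against DNA damage in the mouse, fell to 0.00563 ± 0.00796 FPKM in Tet3-null and 0.0127 ± 0.0105 FPKM in wild-type blastocysts, against 3.43 ± 1.54 and 3.37 ± 0.776 FPKM in Tet3-null and wild-type 2-cell embryos (SD, n = 2 each; limma log2 difference -2.09 in Tet3-null and -2.10 in wild type, adjusted p = 0.000282 and 0.00029).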
